A study of Homo sapiens with 12 samples.

Results

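The aminoacyl-tRNA synthetases are the enzymes that join amino acids to their tRNAs. Their genes were taken from the table of raw counts by symbol, and all 36 were found among its 53717 genes. Of these, 20 encode enzymes of the cytosol and 16, with symbols ending in ARS2, encode enzymes that are imported into mitochondria. All 36 passed the filter on low counts, as did 17264 genes in all, and the lowest count of any member in any library was 264 reads, for WARS2.

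The cells were H9, an established line of human embryonic stem cells, cultured in RSeT medium, so the data describe a single line. They were transfected with a fluorescently labelled oligo at 25 nM and sorted for the label after 48 h. Cells of the ASO-L1 group received an antisense oligo against LINE1, a retrotransposon, those of the sO-L1 group the sense oligo, and those of the ASO-Ctr group an antisense oligo with no target. There were 4 libraries of poly(A) RNA for each oligo. In all 3 groups Trans-ISRIB at 0.7 uM, Emricasan at 5 uM and Y-27632 at 10 uM were also given and were withdrawn after 24 h. Trans-ISRIB counters the block of translation by the integrated stress response, and Emricasan inhibits caspases. LINE1 RNA itself is not an entry of the table, so the knockdown was not measured here. The labels number the replicates without naming separate cultures, so p-values measure the spread between these libraries, which may be technical.

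Most synthetases recognise a single amino acid and its tRNAs, and the charged tRNA then carries that amino acid to the ribosome. Cytosol and mitochondrion each have their own translation, and in human cells most of the mitochondrial enzymes come from separate nuclear genes, while GARS and KARS supply both compartments. Several cytosolic enzymes are held together with scaffold proteins in the multisynthetase complex. ATF4, the transcription factor of the integrated stress response, is known to raise transcription of many cytosolic synthetase genes when amino acids run short.

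The libraries held 22.8 to 55.1 M reads in genes. The 10 listed markers of pluripotent stem cells were all expressed, from 12.8 CPM (reads scaled to a common library size, TMM) for UTF1 upwards, and they summed to 8980 to 9375 CPM in ASO-L1, 9863 to 10483 CPM in sO-L1 and 10067 to 10229 CPM in ASO-Ctr libraries. Against ASO-Ctr, 2 of them were called higher and 3 lower in ASO-L1 (edgeR, adjusted p under 0.05), a share of 50% that is close to the 44.3% of all genes called. ZSCAN10 and DPPA4 were higher, and DNMT3B (-0.51 on the log2 scale), LIN28A and L1TD1 lower. DNMT3B was at 1568 to 1932 CPM in ASO-L1, 2276 to 2555 in sO-L1 and 2358 to 2640 in ASO-Ctr libraries. Lists of markers of other cell types held both silent and expressed genes. Of 8 fibroblast markers, LUM had 0 reads, DCN 2 and COL3A1 6 over all libraries, while FBLN1 was at 140 to 185 CPM and COL1A2 at 31.8 to 69.6 CPM. The list summed to 190 to 231 CPM in ASO-L1, 218 to 238 in sO-L1 and 232 to 251 in ASO-Ctr libraries, and COL1A2 was lower in ASO-L1 than in ASO-Ctr (log2 fold change -0.73). Of 6 primitive endoderm markers, GATA6 had 7 reads and SOX17 1, while COL4A1 was at 76.2 to 122 CPM and PDGFRA at 7.42 to 19.0 CPM. They summed to 85.6 to 122 CPM in ASO-L1, 107 to 139 in sO-L1 and 106 to 138 in ASO-Ctr, with FOXA2 higher (1.21) and PDGFRA (-0.90) and COL4A1 (-0.18) lower in ASO-L1 against ASO-Ctr. The 6 mesoderm markers summed to 18.6 to 30.7 CPM in ASO-L1, 15.3 to 19.4 in sO-L1 and 14.1 to 18.1 in ASO-Ctr libraries, most of it MIXL1, which was higher in ASO-L1 (0.61), while T had 22 reads in all. The 6 neuroectoderm markers summed to 2.9 to 5.55 CPM in ASO-L1, 1.46 to 2.52 in sO-L1 and 1.55 to 2.46 in ASO-Ctr, most of it PAX6, which was higher in ASO-L1 (0.68), while SOX1 had 22 reads in all. The 8 trophectoderm markers summed to at most 1.15 CPM in any library, and CDX2 had 0 reads. Whether these shifts have a part in the results was not tested. In bulk libraries, fewer cells of a type and less RNA per cell cannot be told apart.

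In ASO-L1 cells the synthetase genes moved in both directions. Of the 20 cytosolic genes, 9 were higher and 4 lower than in ASO-Ctr cells, and 7 were not called (edgeR quasi-likelihood test, Benjamini-Hochberg adjusted p under 0.05). CARS, HARS, NARS, AARS, WARS, IARS, YARS, QARS and KARS rose, and DARS, TARS, SARS and LARS fell. Of the 16 mitochondrial genes, HARS2, AARS2, MARS2 and VARS2 rose, WARS2, NARS2 and FARS2 fell, and 9 were not called. The share called was 65% of the cytosolic and 43.8% of the mitochondrial genes, against 44.3% of all genes tested (21.2% higher and 23.1% lower). The mitochondrial share was thus near that of all genes tested. That share depends on the filter: with a minimum count of 50, 54.6% of 13289 genes were called, which lies between the mitochondrial and the cytosolic share. The difference between the lists was not tested.

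Log2 fold changes ran from -0.48 to 0.34 in cytosolic genes, with a median of 0.08, and from -0.47 to 0.30 in mitochondrial genes, with a median of 0.01. The median of all genes tested was -0.00279. The 20 cytosolic genes together had 5915 ± 70.6 CPM in ASO-L1, 5840 ± 151 CPM in sO-L1 and 5827 ± 46.9 CPM in ASO-Ctr libraries (SD, n = 4 each), and the 16 mitochondrial genes 807 ± 39.1 CPM in ASO-L1, 831 ± 4.15 in sO-L1 and 826 ± 20.8 in ASO-Ctr. The summed levels of the ASO-L1 libraries overlapped those of the ASO-Ctr libraries in both lists. All 13 cytosolic and all 7 mitochondrial genes called had the same sign in each of the 4 replicate numbers. The calls were made from these same libraries, so the shared sign is no separate evidence. Its share among all genes called was not computed.

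**Figure D1:**
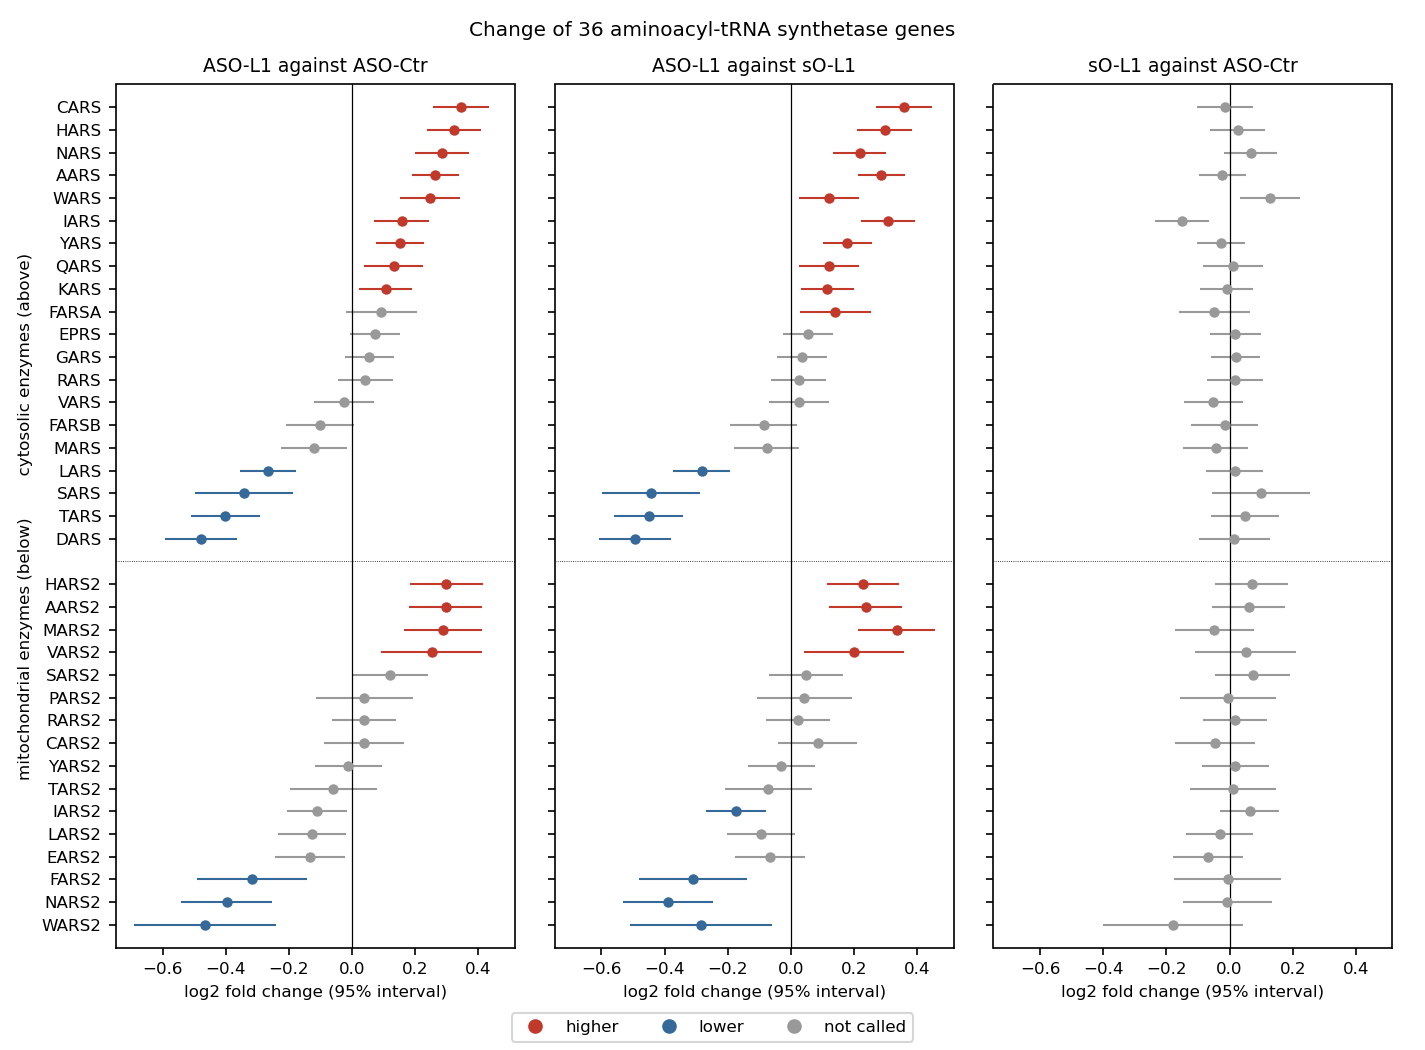
Log2 fold change (x axis) of the 20 cytosolic (above) and 16 mitochondrial (below) synthetase genes in the 3 comparisons, with 95% intervals from the edgeR fit. Red and blue points are genes called higher and lower and grey points were not called. In the panel of sO-L1 against ASO-Ctr, 0 of 36 points are coloured.

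Many cytosolic synthetase genes are known to carry a binding element of ATF4 with its C/EBP partners near their start. The strict form TGATGCAA, or TTGCATCA on the other strand, was looked for in RefSeq promoters (GRCh38.p14, 250 bases before to 50 after the start site), which were at hand for 30 of the 36 members. It was present in 6 of 16 cytosolic promoters (37.5%), in 0 of 14 mitochondrial ones and in 304 of all 35116 promoters (0.866%). The looser TGATGNAA or TTNCATCA, which includes the strict form, was in 6 of 16 cytosolic promoters, in 1 of 14 mitochondrial ones (YARS2, 7.14%) and in 3.62% of all. The 6 genes are shown because they share the element and yet differed in their response: AARS, CARS, IARS and NARS rose, MARS was not called and TARS fell. Each stretch of 76 bases reads 5′ to 3′ on the gene's own strand, with the element in capitals.
AARS (chr16:70289678-70289753, minus strand): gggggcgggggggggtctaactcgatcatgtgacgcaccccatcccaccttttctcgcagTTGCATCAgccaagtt
CARS (chr11:3057410-3057485, minus strand): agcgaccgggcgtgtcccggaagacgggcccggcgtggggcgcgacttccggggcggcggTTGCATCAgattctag
IARS (chr9:92293695-92293770, minus strand): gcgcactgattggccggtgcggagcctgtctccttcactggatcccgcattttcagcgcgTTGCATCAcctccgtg
NARS (chr18:57621807-57621882, minus strand): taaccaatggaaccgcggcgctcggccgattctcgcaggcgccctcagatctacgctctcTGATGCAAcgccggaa
MARS (chr12:57488004-57488079, plus strand): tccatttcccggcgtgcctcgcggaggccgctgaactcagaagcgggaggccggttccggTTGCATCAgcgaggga
TARS (chr5:33440907-33440982, plus strand): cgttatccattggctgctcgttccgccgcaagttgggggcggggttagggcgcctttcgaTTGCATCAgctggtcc

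With the start site counted as 0, the element began at position -187 in AARS, -13 in IARS, -4 in MARS, -2 in CARS, 2 in TARS and 14 in NARS. Of the 10 cytosolic promoters without it, HARS, KARS, QARS and WARS belong to genes that rose and SARS to a gene that fell, and 5 belong to genes that were not called. A match of letters is a description and does not show that the factor binds there. The 12 cytosolic genes listed as ATF4 targets, a list written from general knowledge, included 6 that rose (CARS, AARS, NARS, WARS, YARS and IARS) and 3 that fell (TARS, LARS and SARS), with a median log2 fold change of 0.11. Among 12 other genes of the ATF4 programme, 10 rose and 0 fell, with a median of 0.50. The share called was 75% of the first list and 83.3% of the second, against 44.3% of all genes tested. In the comparison with sO-L1, 8 genes of the second list were higher and 0 lower. That is 66.7% called, against 44.0% of all genes in that comparison (21.1% higher and 22.9% lower). Against ASO-Ctr, the called genes of the second list with the smallest adjusted p were SESN2, ATF5, TRIB3 and DDIT3. Log2 fold changes in that list ran from 0.08 to 2.57. ATF4 itself rose by 0.51 (SE 0.04), and PSAT1, an enzyme of serine synthesis, by 0.26 (SE 0.04). PHGDH, another enzyme of serine synthesis, was not called, nor was SLC7A11.

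CARS, which charges cysteine tRNA, had the largest log2 fold change of the 36 genes against ASO-Ctr. Its levels in replicates 1 to 4 were 98.8, 90.5, 87.1 and 87.7 CPM in ASO-L1, 76.4, 72.1, 67.6 and 67.5 in sO-L1 and 78.0, 71.3, 67.5 and 69.9 in ASO-Ctr. Every ASO-L1 library lay above every library of both other groups. The log2 fold change was 0.34 (SE 0.04, adjusted p = 6.28e-06) against ASO-Ctr and 0.36 (SE 0.04, adjusted p = 3.89e-06) against sO-L1. Groups that did not overlap in this way were also common among all genes, 33.3% of which were separated between ASO-L1 and ASO-Ctr, 16.3% with every ASO-L1 library above and 17.0% with every one below. Among the cytosolic genes 8 lay wholly above and 4 wholly below ASO-Ctr, and among the mitochondrial genes 3 above and 4 below.

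HARS and HARS2, the histidine enzymes of the cytosol and of mitochondria, are neighbours on chromosome 5 that point away from each other. Between their start sites lie 84 bases, and their promoter windows share 184 bases. The stretch is shown because both genes rose. It lies at chr5:140691351-140691474 (GRCh38.p14, RefSeq) and reads 5′ to 3′ on the plus strand, the strand of HARS2, with the bases between the start sites in capitals and 20 transcribed bases on either side.
HARS and HARS2: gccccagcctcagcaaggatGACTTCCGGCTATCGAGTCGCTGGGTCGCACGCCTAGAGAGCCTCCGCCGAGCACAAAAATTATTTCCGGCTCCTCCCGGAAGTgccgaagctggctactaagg

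HARS stood at 120, 114, 119 and 117 CPM in ASO-L1, 95.4, 92.7, 98.5 and 95.6 in sO-L1 and 95.03, 88.3, 97.5 and 94.9 in ASO-Ctr. HARS2 stood at 51.4, 44.7, 44.5 and 42.7 CPM in ASO-L1, 41.0, 38.4, 39.998 and 37.0 in sO-L1 and 37.7, 35.4, 38.1 and 37.6 in ASO-Ctr. In both genes the ASO-L1 libraries lay above all others. The log2 fold change against ASO-Ctr was 0.32 (SE 0.04, adjusted p = 8.72e-06) for HARS and 0.30 (SE 0.05, adjusted p = 0.000306) for HARS2, and their log2 ratio changed by 0.02 ± 0.10 (SD over 4 replicate numbers). In the GENCODE v29 models 11.7% of the exonic bases of HARS2 lie under HARS exons on the other strand. With the strand setting of the counting not given in the sources used here, reads of these bases, and reads that fit both of these similar genes, may have been counted for either.

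AARS, which charges alanine tRNA, had 510, 486, 461 and 432 CPM in ASO-L1, 417, 406, 377 and 349 in sO-L1 and 430, 408, 372 and 364 in ASO-Ctr. NARS, which charges asparagine tRNA, had 568, 531, 579 and 542 CPM in ASO-L1, 475, 454, 493 and 486 in sO-L1 and 430, 444, 463 and 484 in ASO-Ctr. Both were higher in each ASO-L1 library than in any other library, with log2 fold changes against ASO-Ctr of 0.26 for AARS and 0.29 for NARS (SE 0.04 for each, adjusted p = 1.45e-05 and 2.42e-05). YARS, the tyrosine enzyme, also lay above both other groups in every ASO-L1 library, by 0.15 against ASO-Ctr (SE 0.04, adjusted p = 0.00284).

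IARS, which charges isoleucine tRNA, had 581, 557, 543 and 540 CPM in ASO-L1, 450, 450, 444 and 450 in sO-L1 and 465, 509, 507 and 510 in ASO-Ctr. WARS, which charges tryptophan tRNA, had 257, 213, 201 and 214 CPM in ASO-L1, 216, 192, 201 and 202 in sO-L1 and 196, 183, 182 and 180 in ASO-Ctr. These genes differed in how the control groups stood to each other, with IARS lower and WARS higher in sO-L1 than in ASO-Ctr libraries of the same number. The log2 fold change of IARS was 0.16 against ASO-Ctr (SE 0.04, adjusted p = 0.00501) and 0.31 against sO-L1 (SE 0.04, adjusted p = 1.44e-05). That of WARS was 0.25 against ASO-Ctr (SE 0.05, adjusted p = 0.000284) and 0.12 against sO-L1 (SE 0.04, adjusted p = 0.0394).

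DARS, which charges aspartate tRNA, had the lowest log2 fold change of the 36 genes in both comparisons of ASO-L1. It was at 117, 146, 145 and 157 CPM in ASO-L1, 196, 194, 204 and 197 in sO-L1 and 179, 203, 199 and 204 in ASO-Ctr, with no overlap between ASO-L1 and either other group. The log2 fold change was -0.48 (SE 0.05, adjusted p = 2.49e-06) against ASO-Ctr and -0.49 (SE 0.05, adjusted p = 1.83e-06) against sO-L1, a level 1.39 times and 1.41 times lower in ASO-L1.

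TARS, the threonine enzyme, was at 428, 494, 482 and 522 CPM in ASO-L1, 703, 641, 643 and 643 in sO-L1 and 647, 635, 622 and 640 in ASO-Ctr. SARS, the serine enzyme, was at 110, 139, 130 and 149 CPM in ASO-L1, 200, 173, 172 and 173 in sO-L1 and 174, 159, 165 and 172 in ASO-Ctr. All ASO-L1 libraries lay below all others in both genes, and replicate 1 was the lowest of them. Against ASO-Ctr the log2 fold change was -0.40 (SE 0.05, adjusted p = 1.03e-05) for TARS and -0.34 (SE 0.07, adjusted p = 0.00121) for SARS. LARS, the leucine enzyme, fell by 0.27 (SE 0.04, adjusted p = 8.66e-05).

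Of the mitochondrial genes that rose, AARS2 had 45.3, 46.0, 42.2 and 41.7 CPM in ASO-L1, 35.2, 41.4, 36.4 and 35.5 in sO-L1 and 34.1, 36.9, 34.98 and 36.5 in ASO-Ctr. MARS2, which charges mitochondrial methionine tRNA, had 37.9, 31.4, 40.6 and 37.6 CPM in ASO-L1, 29.99, 26.2, 29.6 and 30.7 in sO-L1 and 28.9, 26.5, 31.0 and 34.2 in ASO-Ctr. VARS2, the mitochondrial valine enzyme, had 28.8, 25.9, 29.3 and 26.1 CPM in ASO-L1, 21.0, 26.9, 23.4 and 24.3 in sO-L1 and 23.4, 23.8, 21.8 and 23.3 in ASO-Ctr. AARS2 was above both other groups in every ASO-L1 library, MARS2 overlapped ASO-Ctr, and VARS2 overlapped sO-L1. Their log2 fold changes against ASO-Ctr were 0.30 for AARS2 (SE 0.06, adjusted p = 0.000339), 0.29 for MARS2 (SE 0.06, adjusted p = 0.000771) and 0.25 for VARS2 (SE 0.08, adjusted p = 0.012). VARS2 is uncertain in another way, since 21.99% of its exonic bases are shared with GTF2H4 on the same strand, and its adjusted p was 0.119 without replicate 3, 0.0703 without the ASO-L1 library of that number and 0.0578 without the ASO-Ctr one.

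WARS2, which charges mitochondrial tryptophan tRNA, had 9.52, 11.95, 15.2 and 14.4 CPM in ASO-L1, 16.6, 15.5, 14.7 and 14.96 in sO-L1 and 17.1, 17.5, 16.3 and 19.4 in ASO-Ctr. NARS2, the mitochondrial asparagine enzyme, had 36.5, 41.9, 41.2 and 46.6 CPM in ASO-L1, 60.5, 52.1, 51.1 and 54.1 in sO-L1 and 56.1, 53.9, 54.1 and 54.9 in ASO-Ctr. FARS2, the mitochondrial phenylalanine enzyme, had 10.7, 12.997, 15.1 and 14.3 CPM in ASO-L1, 15.8, 15.8, 16.1 and 18.04 in sO-L1 and 16.99, 15.7, 16.03 and 17.4 in ASO-Ctr. All ASO-L1 libraries were below ASO-Ctr in the 3 genes, and WARS2 alone of them overlapped sO-L1. Against ASO-Ctr the log2 fold change was -0.47 (SE 0.11, adjusted p = 0.00199) for WARS2, -0.40 (SE 0.07, adjusted p = 0.000159) for NARS2 and -0.32 (SE 0.08, adjusted p = 0.00498) for FARS2.

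**Figure D2:**
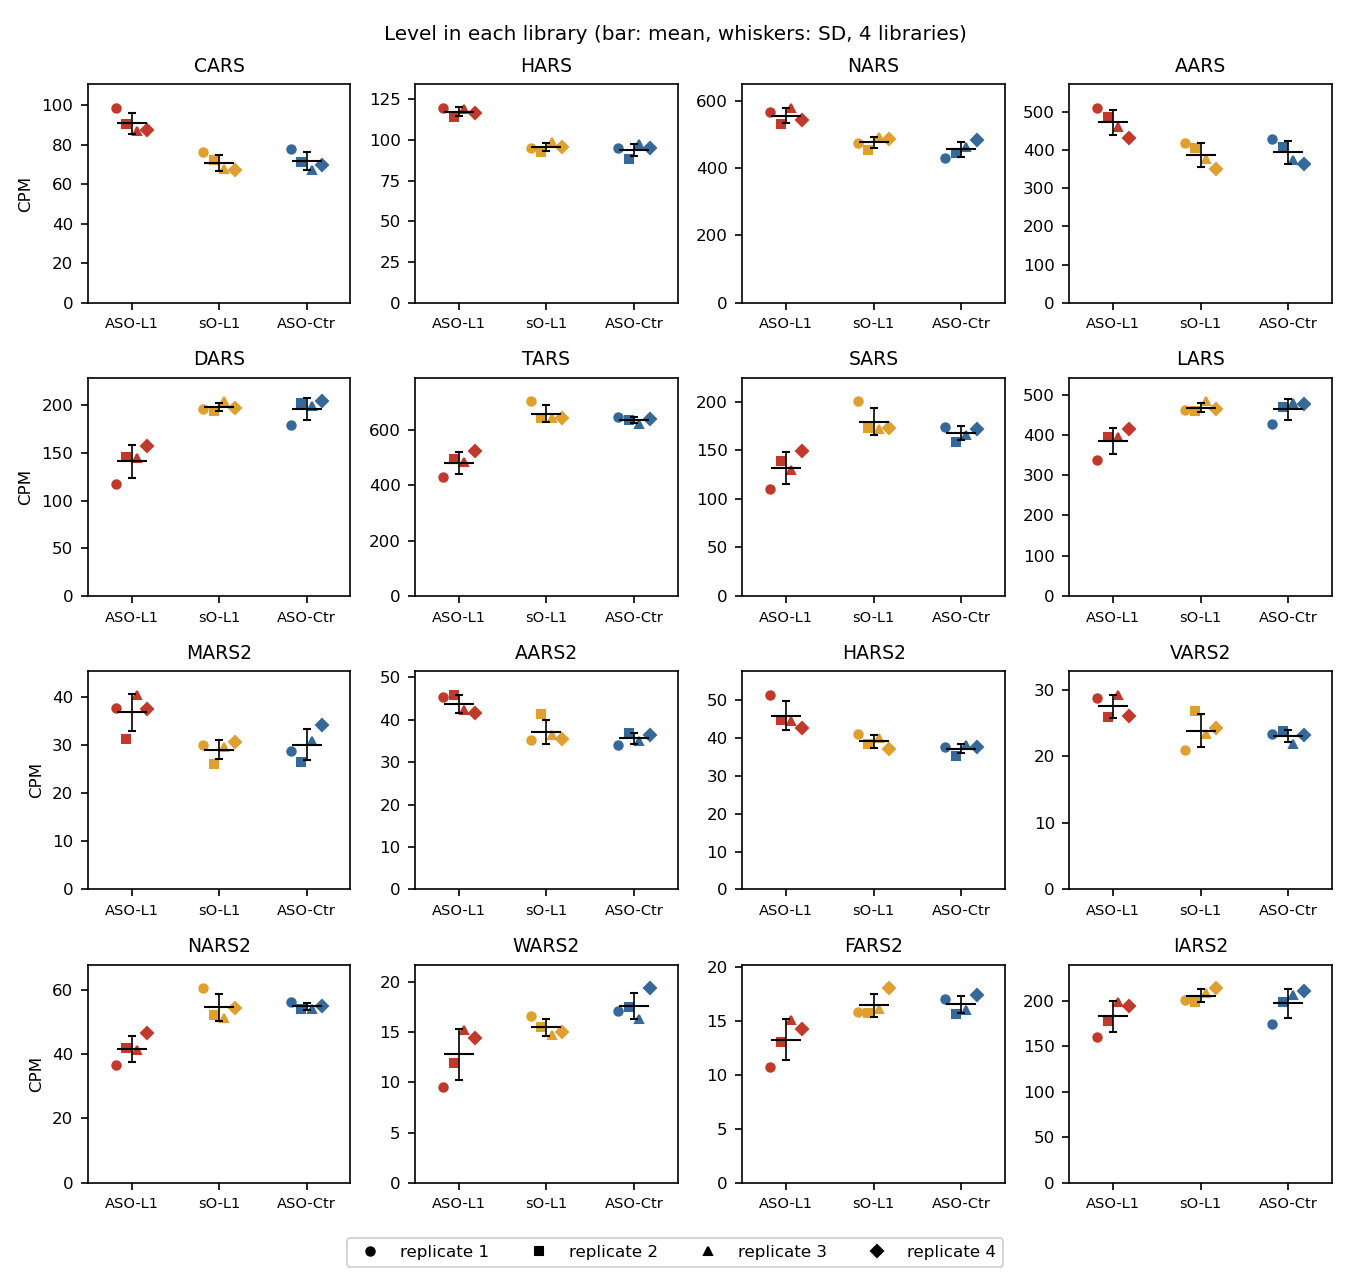
CPM (y axis, from 0) of 16 synthetase genes in the 12 libraries by group, with a symbol for each replicate number and a bar and whiskers for mean and SD. In DARS the 4 ASO-L1 libraries sit between 117 and 157 CPM, below the 8 others at 179 to 204 CPM.

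The calls were also set side by side for the enzymes of the 2 compartments that serve the same amino acid. Of 16 pairs of a cytosolic and a mitochondrial gene, with EPRS paired with both EARS2 and PARS2, both rose in 2 (AARS with AARS2, HARS with HARS2) and both were called in opposite directions in 2, where NARS and WARS rose while NARS2 and WARS2 fell. In 9 pairs 1 gene was called, and in 3 pairs neither was. The share called was 65% of the cytosolic and 43.8% of the mitochondrial genes, against 44.3% of all genes. Whether the pairs differ from unrelated genes in how often their calls match was not tested. The log2 ratio of NARS to NARS2 was higher in ASO-L1 than in ASO-Ctr by 0.69 ± 0.26, and that of WARS to WARS2 by 0.73 ± 0.40. In both pairs the cytosolic gene was higher and the mitochondrial one lower in each replicate number, so these ratios had to rise in all 4. Against sO-L1 the changes were 0.61 ± 0.26 and 0.42 ± 0.49, the latter above 0 in 3 of 4 numbers. Ratios that fell in 4 of 4 numbers against ASO-Ctr included SARS to SARS2 (-0.47 ± 0.22), MARS to MARS2 (-0.41 ± 0.25) and TARS to TARS2 (-0.34 ± 0.05, SD over 4 numbers throughout). For SARS and MARS this too was fixed by the opposite signs of the 2 genes in each number. No p-value was computed for these ratios. SARS2 shares 46.18% of its exonic bases with genes on the same strand, MRPS12 among them, so its counts are uncertain.

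**Figure D3:**
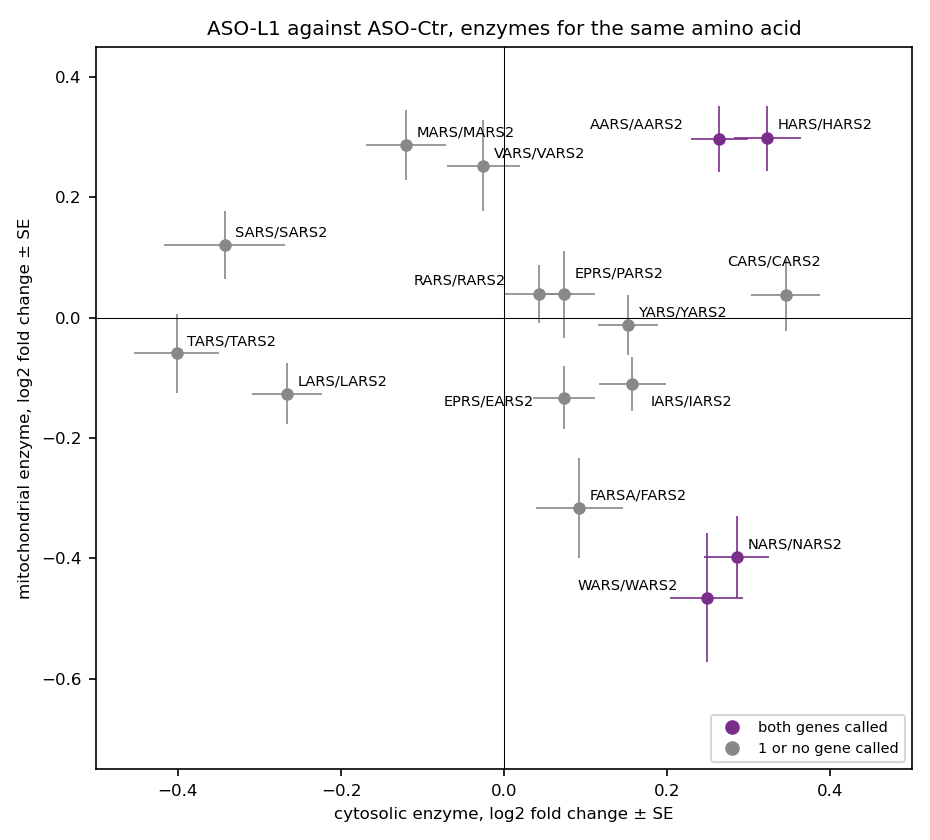
Log2 fold change with SE of the mitochondrial gene (y axis) against that of the cytosolic gene for the same amino acid (x axis), ASO-L1 against ASO-Ctr. In the 4 purple pairs both genes were called, with AARS/AARS2 and HARS/HARS2 at the upper right and NARS/NARS2 and WARS/WARS2 at the lower right.

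Genes that serve both compartments, or that encode more than 1 activity or a subunit of an enzyme, had small log2 fold changes. This was not particular to them, since RARS (0.04) and VARS (-0.03) also changed little against ASO-Ctr. GARS, whose products charge glycine tRNA in cytosol and mitochondria, had 595, 555, 515 and 549 CPM in ASO-L1, 599, 516, 517 and 530 in sO-L1 and 561, 523, 526 and 521 in ASO-Ctr, with a log2 fold change of 0.05 against ASO-Ctr (95% interval -0.02 to 0.13). KARS, which does the same for lysine, had 293, 303, 314 and 312 CPM in ASO-L1, 290, 270, 286 and 282 in sO-L1 and 277, 275, 286 and 298 in ASO-Ctr. Its log2 fold change of 0.11 was called against ASO-Ctr (SE 0.04, adjusted p = 0.0363), although these groups overlapped. Without the replicate number in the model its adjusted p was 0.0858, and the call was also lost, at adjusted p from 0.0642 to 0.189, without replicate 2 or 3, without ASO-L1 replicate 2, 3 or 4, without sO-L1 replicate 2 and without ASO-Ctr replicate 1, 2 or 3. The adjusted p of KARS was 0.0856 in edgeR with no filter, 0.0594 with only the 2 groups compared and 0.0587 with limma on the authors' log2 values. QARS, the glutamine enzyme, which is not of these kinds, was called at 0.13 (SE 0.04, adjusted p = 0.0232). It stood at an adjusted p of 0.0809 without the replicate number. Its call was lost, at adjusted p from 0.0595 to 0.148, without replicate 2, 3 or 4, without ASO-L1 replicate 2, 3 or 4 and without ASO-Ctr replicate 2 or 3.

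FARSA and FARSB encode the subunits of the cytosolic phenylalanine enzyme. FARSA had 111, 126, 133 and 137 CPM in ASO-L1, 115, 114, 115 and 115 in sO-L1 and 122, 112, 118 and 124 in ASO-Ctr. FARSB had 106, 126, 134 and 138 CPM in ASO-L1, 131, 123, 141 and 138 in sO-L1 and 124, 134, 140 and 141 in ASO-Ctr. In both genes the groups overlapped, and neither was called against ASO-Ctr, at 0.09 for FARSA (95% interval -0.02 to 0.20) and -0.10 for FARSB (-0.21 to 0.01). EPRS, a single protein that charges both glutamate and proline tRNA, had 391.5, 398, 408 and 406 CPM in ASO-L1, 401, 371, 386 and 386 in sO-L1 and 375, 387, 377 and 385 in ASO-Ctr. It was not called at 0.07 (-0.01 to 0.15), although every ASO-L1 library was above every ASO-Ctr library.

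The multisynthetase complex held genes called in both directions. Of its 8 enzyme genes, IARS, QARS and KARS rose, DARS and LARS fell, and EPRS, RARS and MARS were not called, with a median log2 fold change of 0.06. Of the 3 scaffold genes, EEF1E1 rose against ASO-Ctr (0.20, SE 0.07, adjusted p = 0.0262) and AIMP1 and AIMP2 were not called, at -0.02 and 0.07. Against sO-L1, 0 of the 3 scaffold genes were called. The log2 difference of EEF1E1 between ASO-L1 and sO-L1 was -0.08, 0.16, -0.02 and 0.06 in replicates 1 to 4. The rise of EEF1E1 was thus seen against only 1 of the control oligos. By fold of the catalytic domain, class I had 5 genes higher and 1 lower of 10 against ASO-Ctr, and class II 4 higher and 3 lower of 10. The share called was 62.5% of the complex's enzymes, 60% of class I and 70% of class II, against 44.3% of all genes, and whether these lists differ from all genes was not tested.

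The comparison of ASO-L1 with the sense oligo uses the same ASO-L1 libraries as the one with ASO-Ctr. Of the 20 cytosolic genes 10 were higher and 4 lower, against 44.0% of all genes called (21.1% higher and 22.9% lower). Those higher included FARSA (0.14, SE 0.05, adjusted p = 0.0404), which was not called against ASO-Ctr. Of the mitochondrial genes 4 were higher and 4 lower, IARS2 among those lower (-0.17, SE 0.04, adjusted p = 0.00455). Of the genes called, 11 of 14 cytosolic and 6 of 8 mitochondrial ones went in the same direction in every replicate number. Here too the calls came from the same libraries. Without the replicate number in the model, 6 cytosolic genes were called higher, and FARSA stood at an adjusted p of 0.081 and IARS2 at 0.0714. Leaving out a replicate number or a library ended the call in 10 of 16 fits for FARSA, KARS and QARS, 9 for WARS, 8 for WARS2 and 7 for VARS2. Every ASO-L1 library was above every sO-L1 library in 7 cytosolic and 3 mitochondrial genes and below in 4 and 2, against 32.1% of all genes separated in 1 or the other direction. In the authors' deposited table of this comparison FARSA, WARS and VARS2 had adjusted p-values of 0.0546, 0.0773 and 0.0735.

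Between the control oligos 0 of 36 genes were called by edgeR, against 0.290% of all genes tested, 0.0695% higher and 0.220% lower. At an unadjusted p under 0.05, WARS was higher and IARS lower in sO-L1, and DESeq2 and limma called 0 of 36 as well. IARS was not called at -0.15 (SE 0.04, adjusted p = 0.213), although each sO-L1 library was below each ASO-Ctr library. It was the 1 member of 36 whose groups did not overlap. Among all genes 3.23% were separated, 1.24% with sO-L1 above and 1.99% with sO-L1 below. IARS was called without replicate 1 (adjusted p = 0.000147), without the ASO-Ctr library of that number (0.0442) and without the ASO-L1 one (0.0025).

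Replicate 1 showed larger differences between ASO-L1 and ASO-Ctr than the other numbers. The median size of the log2 difference was 0.283, 0.182, 0.172 and 0.146 in cytosolic genes and 0.310, 0.139, 0.103 and 0.126 in mitochondrial genes for replicates 1 to 4. The SD over all 17264 genes was 0.688, 0.496, 0.534 and 0.472 in the same order. WARS2 differed most between numbers, at -0.84, -0.55, -0.10 and -0.42, and CARS least among the genes with large changes, at 0.34, 0.34, 0.37 and 0.33. Without replicate 1, the 4 cytosolic and 3 mitochondrial genes that fell were still called, with FARS2 at -0.21 in place of -0.32.

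**Figure D4:**
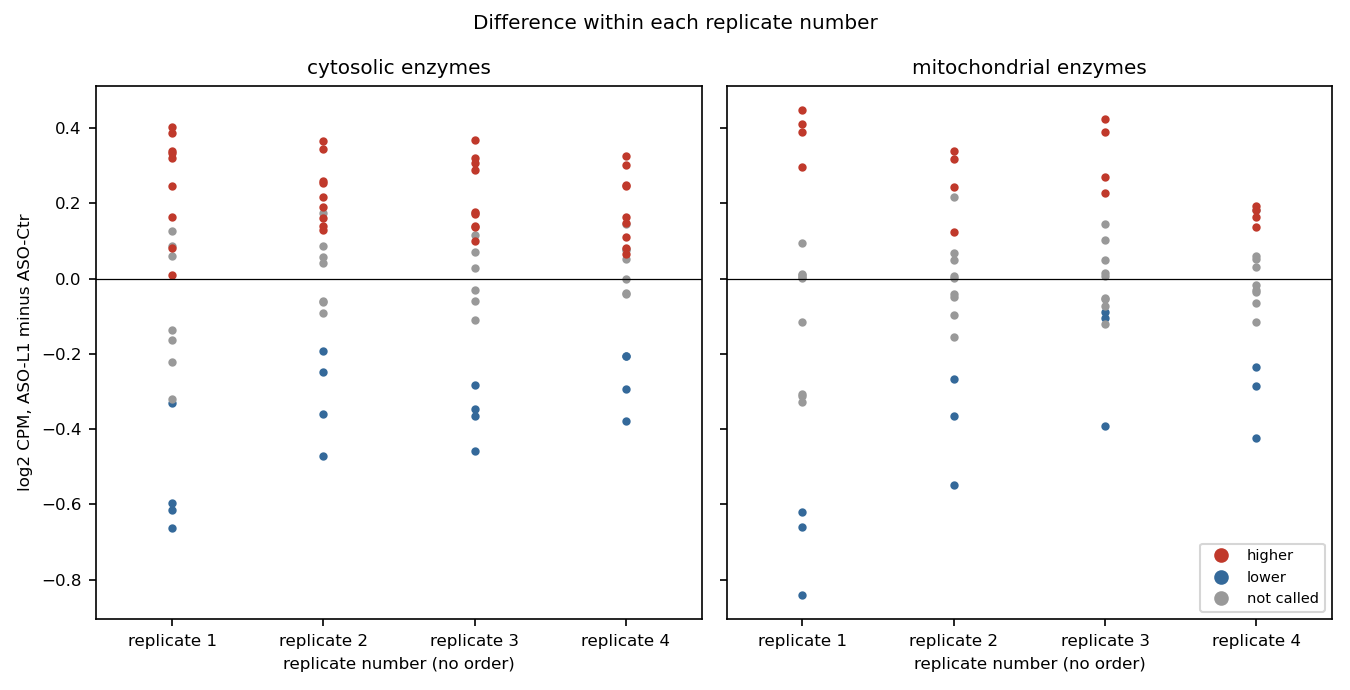
Difference of log2 CPM (y axis), ASO-L1 minus ASO-Ctr, within each replicate number (x axis) for cytosolic and mitochondrial genes, coloured by call. In replicate 1 the points spread most widely, down to -0.84 for WARS2.

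Per length of transcript, most cytosolic genes were more abundant than mitochondrial ones. With CPM divided by the length in kb of the principal GENCODE v29 transcript, the median cytosolic gene was at 85.9 CPM per kb in ASO-L1, 94.6 in sO-L1 and 91.3 in ASO-Ctr, and the median mitochondrial gene at 17.4 in ASO-L1, 17.8 in sO-L1 and 17.2 in ASO-Ctr. GARS was the highest, at 210 CPM per kb in ASO-L1, 205 in sO-L1 and 202 in ASO-Ctr. TARS stood at 112 and NARS at 179 CPM per kb in ASO-L1, against 147 for each in ASO-Ctr. The ranges of the lists overlapped. IARS2, the highest mitochondrial gene, had 51.3 CPM per kb in ASO-L1, 57.7 in sO-L1 and 55.3 in ASO-Ctr, above CARS, the lowest cytosolic one, at 33.9 in ASO-L1, 26.4 in sO-L1 and 26.7 in ASO-Ctr. At the low end WARS2 had 4.56 CPM per kb in ASO-L1, 5.52 in sO-L1 and 6.28 in ASO-Ctr, and PARS2, the mitochondrial proline enzyme, 5.29 in ASO-L1, 5.14 in sO-L1 and 5.15 in ASO-Ctr. Duplicate reads had been removed before counting, which compresses the levels of abundant genes.

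**Figure D5:**
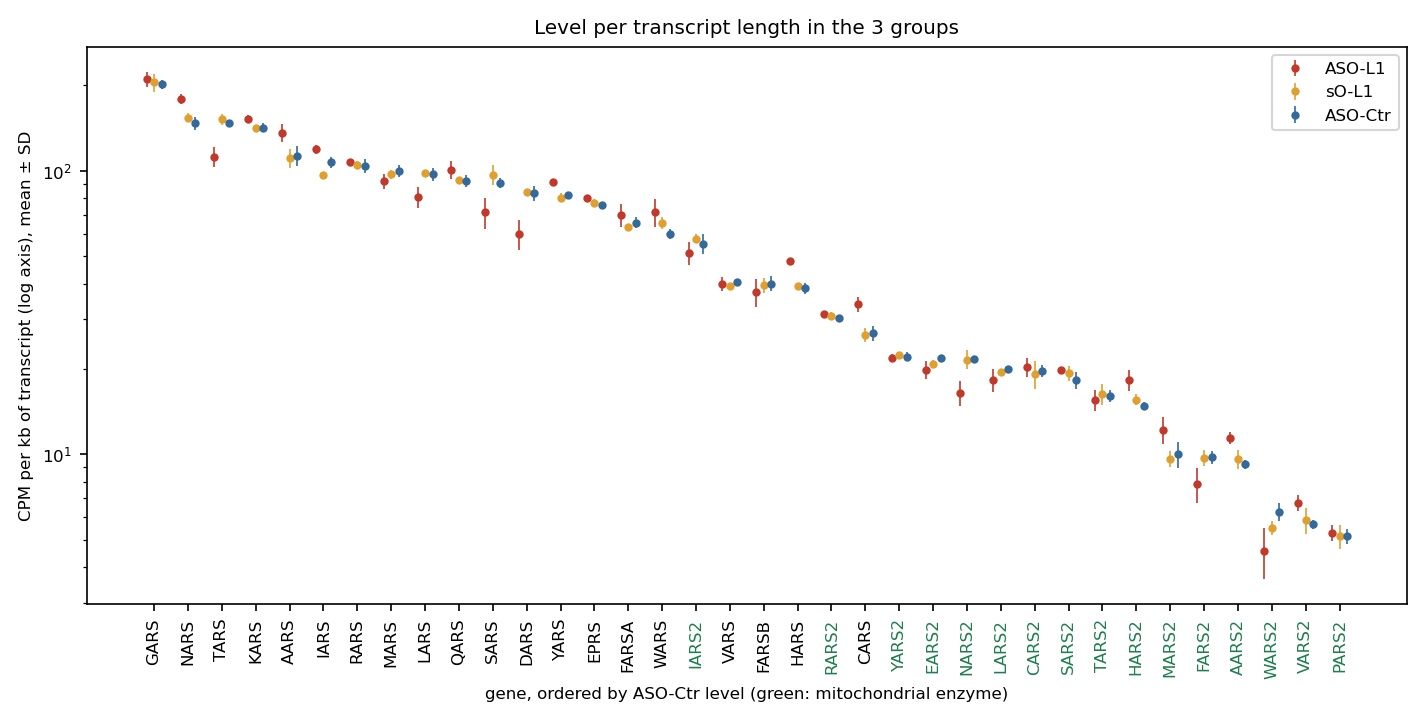
Mean level with SD (n = 4) in CPM per kb of transcript (log axis) of the 36 genes in ASO-L1, sO-L1 and ASO-Ctr, ordered by the ASO-Ctr mean, with mitochondrial genes in green. In ASO-L1, DARS, TARS, SARS and LARS stand below and NARS, CARS and HARS above the other groups.

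Genes of neighbouring steps were counted by the same test, in which 44.3% of all genes were called (21.2% higher and 23.1% lower), and changes are on the log2 scale. Among 11 genes of mitochondrial tRNA maturation, 6 rose and 3 fell in ASO-L1 against ASO-Ctr. CDK5RAP1 and MTO1, which modify mitochondrial tRNAs, rose by 0.35 (SE 0.05) and 0.30 (SE 0.05), while KIAA0391, the nuclease subunit of mitochondrial RNase P, and TRIT1, which isopentenylates tRNAs, fell by 0.42 (SE 0.06) and 0.30 (SE 0.06). Among 11 mitochondrial translation factors, GFM1, TUFM, MTRF1L and MTIF2 rose and 0 fell, so that 36.4% were called, below the share of all genes. Of 5 cytosolic elongation factor genes tested, 4 rose, EEF1A1 (0.25, SE 0.03) and EEF2 (0.23, SE 0.03) among them, while EEF1G did not pass the filter. Of 18 genes of nuclear tRNA processing and export, 6 rose and 3 fell, 50% in all and near that share. XPOT, the exporter of tRNA, rose by 0.33 (SE 0.06), and RPP25, a subunit of RNase P, by 0.57 (SE 0.06). Of 14 genes of RNA polymerase III, which transcribes tRNA genes, 6 rose and 4 fell, with BDP1, a subunit of its initiation factor TFIIIB, at -1.03 (SE 0.06). Against sO-L1, where 44.0% of all genes were called, 3 mitochondrial translation factors were higher (TUFM, GFM1 and MTRF1L) and GFM2 was lower. The elongation factors had 3 higher and 0 lower in that comparison, and RNA polymerase III 5 higher and 3 lower. Mitochondrial tRNA maturation and nuclear tRNA processing each kept 6 higher and 3 lower.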

How the data were processed

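Levels of poly(A) RNA were measured in 12 libraries, 4 in each of 3 groups. The authors deposited raw counts per gene with duplicates removed, per the labels, which lowers abundant genes most. Per the submitters' processing notes, the tools were Trim Galore 0.4.0, TopHat2 2.0.13 and Subread 1.5.0 (featureCounts), and the build was hg19. The annotation and strand setting are not given in the sources used here. The authors also deposited normalized, batch-corrected log2 values, and a table of ASO-L1 over sO-L1 with log2 fold changes, p-values and adjusted p-values. Other scores of that table deposited by the authors were not used.

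The counts were fitted in R 4.3.3 with edgeR 4.0.16 on all 12 libraries (TMM, filterByExpr with a minimum count of 10, group and replicate number in the model, two-sided quasi-likelihood F-tests), with Benjamini-Hochberg adjustment over 17264 genes and calls under 0.05. The replicate number was kept because the authors corrected for batch. In 10549 genes averaging 200 or more reads, the 12 pairs of libraries with the same number deviated together from their group means (r from 0.216 to 0.725, above a threshold of 0.1), against a median of -0.223 for other pairs. That negative median adds no separate evidence, since deviations from a group mean sum to 0 within the group. Levels are CPM with TMM scaling, as mean ± SD, and differences within a replicate number are of log2 CPM with a prior count of 2. The depth of 22.8 to 55.1 M reads makes 3 reads, the limit that a count of 0 allows, 0.0534 to 0.128 CPM. Fits were tested on simulated data. Alternatives were DESeq2 1.42.0, other scalings and filters, only the groups compared, no replicate number, limma 3.58.1 on the deposited log2 values, and each replicate number or library left out. Transcript lengths and exon overlaps come from GENCODE v29 (GRCh38), not from the authors' annotation. The members and lists were chosen with earlier results of these data known. Values per library are given for the members with the largest changes among those called and moved alike in all replicate numbers, and for HARS, HARS2, GARS, KARS, FARSA, FARSB and EPRS. In the pathway lists up to 4 called genes with the smallest adjusted p were eligible for naming, and ATF4, PSAT1, PHGDH and SLC7A11 were named outside this rule.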

Additional observations from a re-analysis of the deposited data

Results flagged for a closer look

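In 21 members with values per library, each group of 4 was examined for a library that stood apart, meaning that its gap to the nearest of the others exceeded the critical share of the group's range on the log2 scale (Dixon's ratio at 95%). This held in 8 of 63 groups. The nominal rate of about 1 in 20 is for independent groups of normal values, whereas these genes share the same 12 libraries. An excess can therefore not be read from the count, and the share over all genes was not computed. In sO-L1, replicate 1 was high for TARS at 703 CPM (others 641 to 643) and for SARS at 200.4 CPM (others 172 to 173). Replicate 4 of sO-L1 was high for FARS2 at 18.04 CPM (others 15.8 to 16.1), replicate 3 was low for IARS at 444 CPM (others 450), and replicate 2 was low for FARSA at 114 CPM (others 115). In ASO-Ctr, replicate 1 was low for IARS at 465 CPM (others 507 to 510) and high for GARS at 561 CPM (others 521 to 526), and replicate 2 was low for HARS2 at 35.4 CPM (others 37.6 to 38.1). In IARS and FARSA of sO-L1 the whole range was a few CPM, so these gaps are small in size.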

How the results depend on the processing

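Over the 36 members no direction of a called gene reversed under any alternative. Of 864 values against ASO-Ctr, 821 kept their side of the threshold, 25 lost and 18 gained the call. Of 864 against sO-L1, 789 kept it, 73 lost and 2 gained it, and of 864 between the control oligos 857 kept it and 7 gained it. Without the replicate number in the model, cytosolic genes higher against sO-L1 numbered 6 in place of 10, and mitochondrial genes lower 2 in place of 4. With only the 2 groups compared in the fit, cytosolic genes higher against sO-L1 were again 6, and between sO-L1 and ASO-Ctr 1 cytosolic gene was higher (WARS) and 1 lower (IARS). Leaving out a replicate number or a library in turn gave 3 to 5 mitochondrial genes lower against ASO-Ctr, with 5 without ASO-L1 replicate 4 and without sO-L1 replicate 1. It gave 6 to 10 cytosolic genes higher against sO-L1, with 6 the lowest and counts moved by over 1.5 times without replicate 2, replicate 4, ASO-L1 replicate 2 or 4, sO-L1 replicate 2 or ASO-Ctr replicate 2. It gave 0 to 1 cytosolic genes higher and 0 to 1 lower in sO-L1 against ASO-Ctr, with 1 without replicate 1 or ASO-L1 replicate 1 in both directions, and 1 lower without ASO-Ctr replicate 1. The other counts stayed within 1.5 times. Leaving GARS and KARS out of the cytosolic list did not change these counts by over 1.5 times. The causes were not tested. WARS2, FARS2 and PARS2 had the lowest counts of the members, from 264, 298 and 293 reads in a library upwards.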

Other observations

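Among 5 related genes of synthetase homologues, editing and selenocysteine factors, DTD1, which removes D-amino acids from tRNAs, fell by 0.68 on the log2 scale in ASO-L1 against ASO-Ctr (SE 0.09) and the other 4 were not called (edgeR). Of 4 genes that complete charged tRNAs in mitochondria, GATC, a subunit of the enzyme that makes glutaminyl-tRNA, rose by 0.25 (SE 0.06), and MTFMT, which formylates the initiator methionyl-tRNA, fell by 0.24 (SE 0.08). The share called was 20% of the first list and 50% of the second, against 44.3% of all genes tested. In the comparison with sO-L1, DTD1 was again lower and GATC higher, and MTFMT was not called.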
